A study of Mus musculus with 8 samples.

Results

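The genes described here are 38 genes that astrocytes use, measured in the hippocampus of Alzheimer's disease model mice that ate rosmarinic acid (RA), a polyphenol of herbs such as rosemary. They were taken as every probe set that names a single gene of the list, which gave 88 of the 45037 probe sets of the array, for 38 of 18193 named genes. A further probe set, which names Slc1a2 together with another gene, was left out. The rule for the members uses gene names and no measured value, but the list was chosen with earlier results of these data known.

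The data are 8 Affymetrix mouse genome arrays of hippocampal RNA from male 3xTg-AD mice at 10 months of age. The strain expresses amyloid precursor protein Swe, tau P301L and presenilin 1 M146V, and both groups carried all of these alleles. The control group (4 arrays) ate a purified diet, and the RA group (4 arrays) ate this diet with 0.5% RA, both for 8 months. The comparison asks which transcripts differ in the hippocampus after long intake of RA, and no mice without the transgenes are among these arrays. The Methods speak of individual mice and also of pooled RNA, so p-values measure only the spread between these arrays.

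Astrocytes are the glial cells that take up glutamate and γ-aminobutyric acid (GABA) from the space around synapses, turn glutamate into glutamine for neurons, and pass ions and metabolites among themselves through gap junctions. Their end feet line blood vessels and carry the water channel Aqp4, and they secrete lipid carriers and matrix proteins. In Alzheimer's disease astrocytes near plaques become reactive, with more of the filament protein Gfap, a state that differs from their resting programme of transport and metabolism.

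The deposited values are log2 summaries, and most probe sets of this array hold nearly the same value in all 8 arrays. A probe set was treated as measured where its standard deviation (SD) over the arrays was above 0.01, which held for 3758 of all probe sets (8.34%). Of the astrocyte genes, 29 genes with 45 probe sets were measured. The lowest SD among these 45 was 0.0121, in Bcan, and the highest among the other 43 was 0.00038. Acsbg1, Cst3, Fgfr3, Mlc1, Mt1, Ndrg2, S100b, Sox2 and Sox9 had no measured probe set, and nothing can be said of them here. Array medians lay between 5.829 and 5.835 and correlations between arrays between 0.989 and 0.998. Where a gene had several measured probe sets, the measured one with the highest mean stands for it, and others are given where they differ. In Glul, Slc1a2, Slc1a3, Id2, Slc4a4 and Ttyh1 a brighter probe set was unmeasured, so the values shown are not from the brightest probe set of the gene.

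The promoters of 4 transcription and filament genes are shown because these genes stand out in the values below. Id2 and Id4, inhibitors of helix-loop-helix transcription factors, were higher in the RA group. Hes5, a target gene of Notch, varied most between arrays, and Gfap ran against most of the other genes. Each line gives the 250 bases before a RefSeq transcription start (assembly GRCm38.p6), 5′ to 3′ on the strand of the gene. Capitals mark TGGGAA or its reverse complement, a core motif of RBPJ, the DNA-binding partner of Notch.
Id2, chr12:25096093-25096342, minus strand: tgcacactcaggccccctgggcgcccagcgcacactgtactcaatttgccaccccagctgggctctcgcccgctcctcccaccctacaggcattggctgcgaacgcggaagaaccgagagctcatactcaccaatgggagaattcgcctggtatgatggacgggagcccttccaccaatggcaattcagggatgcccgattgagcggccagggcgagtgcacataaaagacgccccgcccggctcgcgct
Id4, chr13:48260866-48261115, plus strand: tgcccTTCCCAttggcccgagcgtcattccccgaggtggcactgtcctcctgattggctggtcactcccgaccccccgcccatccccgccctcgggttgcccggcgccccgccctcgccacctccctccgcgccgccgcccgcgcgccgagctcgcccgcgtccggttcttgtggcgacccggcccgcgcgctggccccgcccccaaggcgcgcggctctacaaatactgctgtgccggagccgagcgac
Hes5, chr4:154960673-154960922, plus strand: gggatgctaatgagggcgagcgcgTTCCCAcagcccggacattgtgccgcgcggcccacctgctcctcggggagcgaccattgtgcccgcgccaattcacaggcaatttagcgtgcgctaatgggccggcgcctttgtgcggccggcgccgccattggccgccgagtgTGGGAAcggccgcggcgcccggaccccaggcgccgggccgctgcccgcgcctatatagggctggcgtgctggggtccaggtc
Gfap, chr11:102897201-102897450, minus strand: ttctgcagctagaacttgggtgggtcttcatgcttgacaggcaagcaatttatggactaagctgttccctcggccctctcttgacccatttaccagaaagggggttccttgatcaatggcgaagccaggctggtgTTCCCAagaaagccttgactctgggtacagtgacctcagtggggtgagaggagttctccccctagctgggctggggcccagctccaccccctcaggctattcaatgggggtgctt

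The motif occurred at 2 places before Hes5, at 1 place before Id4 and Gfap, and at none before Id2. Searched on both strands, it lay in 21.6% of the 32851 promoters of this length and in 34.5% of those of measured astrocyte genes. It lay before 9 of the 25 measured astrocyte genes with a promoter in this set. A gene with several promoters counts where any of them matches. Other motifs were as follows among these 25 genes. The E-box CANNTG, the site of the helix-loop-helix factors that Id proteins restrain, lay before 17 of them. It was in 58.6% of their promoters, against 66.2% of all promoters. The STAT motif TTCNNNGAA lay before 5, in 17.2% of their promoters against 7.02% of all. The NFI motif TTGGCA lay before 2, in 6.9% against 12.3%, and the cyclic AMP response element TGACGTCA before 0, against 1.55%. The motifs were chosen after the values were seen, and a match is a run of letters, not a bound site.

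Each of the 29 measured astrocyte genes had a higher mean over the RA arrays than over the control arrays. The median log2 fold change of the 29 genes was 0.16, from 0.0074 for Bcan to 0.36 for Sparc. Among their probe sets, 44 of 45 were higher on average in the RA arrays, and the exception was a probe set of Clu. This is to be read against the whole array, where 73.1% of the measured probe sets were higher on average in the RA arrays and the median log2 fold change was 0.069. In whole tissue, more astrocytes and more RNA per astrocyte cannot be told apart, and the part of other cells was not tested.

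By the rank product, the test that the study used, 14 of the 45 measured astrocyte probe sets (31.1%) were called higher in the RA group, and 0 were called lower. Over all measured probe sets, 10.8% were called higher and 6.81% lower, which is 0.904% and 0.568% of all probe sets on the array. The called probe sets belong to 11 genes, namely Gabrg1, Slc6a11, Abat, Slc1a3, Glul, Gja1, Aqp4, Aldh1l1, Sparc, Id2 and Id4. Their estimated proportion of false positives (pfp) lay between 0.0193 and 0.0485, the highest just under the threshold of 0.05, and their fold changes between 1.15 and 1.28. The unmeasured probe sets gave 0 calls, with log2 fold changes of at most 0.00039 in size.

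The calls depended on the set of arrays, on the test and on which probe sets were ranked. With only the probe sets of SD above 0.01 ranked, 0 astrocyte genes were called higher. The pfp of the 9 genes called by the probe set that stands for them was then between 1.03 (Sparc) and 1.15 (Id2). Without any single RA array, 0 astrocyte genes were called higher, without control 2 there were 7, and limma called 0% of all probe sets and 0 astrocyte genes at an adjusted p under 0.05 (lowest adjusted p 0.375 among the astrocyte probe sets). The log2 fold changes of the called genes moved less. In the 9 genes called by the probe set that stands for them, the log2 fold change without 1 RA array was between 0.15 and 0.44, and only that of Gabrg1 moved by over 1.5 times, from 0.26 to 0.16 without RA 2 and to 0.15 without control 3. Without RA 2, all 9 had a smaller log2 fold change, and without RA 4 most had a larger one, such as 0.44 for Sparc and 0.31 for Slc6a11. By limma's unadjusted p under 0.05, 10 of the 45 astrocyte probe sets were higher, against 5.3% of all measured probe sets, and 4553 probe sets of the whole array passed in either direction.

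**Figure D1:**
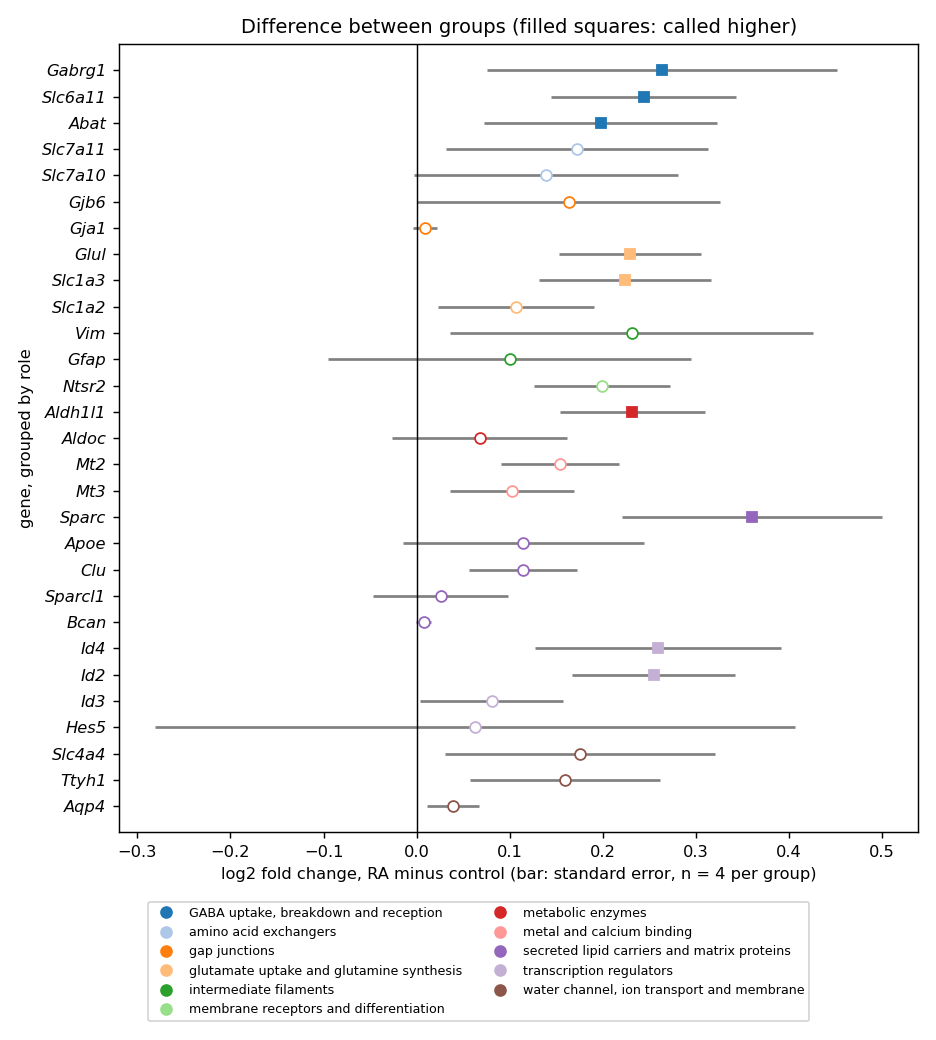
Log2 fold change (RA minus control, x axis) of the 29 measured astrocyte genes, grouped by role on the y axis, with the standard error from limma (n = 4 per group). Filled squares mark the 9 genes whose shown probe set was called higher by the rank product, and all 29 points lie right of 0, while the bars of Gfap, Hes5, Sparcl1, Aldoc, Apoe, Slc7a10, Gja1 and Bcan cross it.

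All 3 genes of GABA handling were called higher, where 10.8% of all measured probe sets were, with a median log2 fold change of 0.24. Slc6a11, the GABA transporter GAT-3 of astrocytes, had log2 values of 7.98, 7.68, 7.71 and 7.91 in control 1 to 4 and of 8.10, 8.20, 8.09 and 7.86 in RA 1 to 4. RA 4 lay below control 1 and control 4, so the groups overlapped, and the log2 fold change was 0.24 ± 0.099 (SE; limma adjusted p = 0.488). Gabrg1, a subunit of the GABA-A receptor, was called higher by both of its probe sets, with log2 fold changes of 0.26 ± 0.19 and 0.32 ± 0.15 (SE). Abat, the mitochondrial enzyme that breaks GABA down and that neurons also use, was called at 0.20 ± 0.13 (SE). Its highest array was RA 2 with 9.20, and RA 3 with 8.83 lay below control 1 and control 4.

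Of the glutamate genes, Slc1a3 and Glul were called higher and Slc1a2 was not. Each is shown from a measured probe set. A brighter one was unmeasured, with a mean of 9.88 for Slc1a3, 11.3 for Glul and 12.1 for Slc1a2. Slc1a3, the glutamate transporter GLAST, had log2 values of 9.58, 9.47, 9.36 and 9.59 in the control arrays and of 9.74, 9.94, 9.57 and 9.65 in the RA arrays. All RA arrays but RA 3 were above every control array, and RA 3 was below control 1 and control 4. The log2 fold change was 0.22 ± 0.092 (SE; limma adjusted p = 0.491). Glul, the glutamine synthetase that turns the captured glutamate into glutamine, had values of 9.29, 9.62, 9.36 and 9.48 in the control arrays and of 9.59, 9.68, 9.74 and 9.65 in the RA arrays. Only RA 1 lay below a control array, control 2, and the log2 fold change was 0.23 ± 0.076 (SE; limma adjusted p = 0.418). Slc1a2, the glutamate transporter GLT-1, had a log2 fold change of 0.11 ± 0.084 (SE) and of 0.14 ± 0.061 (SE) in its other probe set, and its RA arrays lay close together, with an SD of 0.025 against 0.17 in the control arrays.

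Of the 4 measured transcription regulators, Id2 and Id4 were called higher, and a probe set of Id4 had the widest gap between the groups among the astrocyte probe sets. This probe set of Id4 had log2 values of 7.80, 7.49, 7.53 and 7.75 in the control arrays and of 7.94, 8.07, 7.93 and 7.84 in the RA arrays, and it is the dimmest of 3. Every RA array lay above every control array, by at least 0.033, with a log2 fold change of 0.30 ± 0.087 (SE; limma adjusted p = 0.375). The probe set that stands for Id4 was called as well, at 0.26 ± 0.13 (SE), and the third was not, at 0.18 ± 0.14 (SE), and in both of these the groups overlapped. Id2 had values of 8.28, 8.29, 8.11 and 8.32 in the control arrays and of 8.47, 8.70, 8.53 and 8.33 in the RA arrays. The groups did not overlap, though RA 4 was above control 4 by only 0.0020, and the log2 fold change was 0.25 ± 0.088 (SE; limma adjusted p = 0.433).

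Id3, which acts like Id2 and Id4, and Hes5 were not called. Id3 had a log2 fold change of 0.081 ± 0.077 (SE). Hes5 varied over more than a log2 unit within each group, from 5.84 in control 3 to 6.93 in control 1 and from 5.93 in RA 4 to 6.97 in RA 2. Its log2 fold change of 0.063 ± 0.34 (SE) became -0.13 without RA 2, -0.095 without control 2 and -0.097 without control 3.

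**Figure D2:**
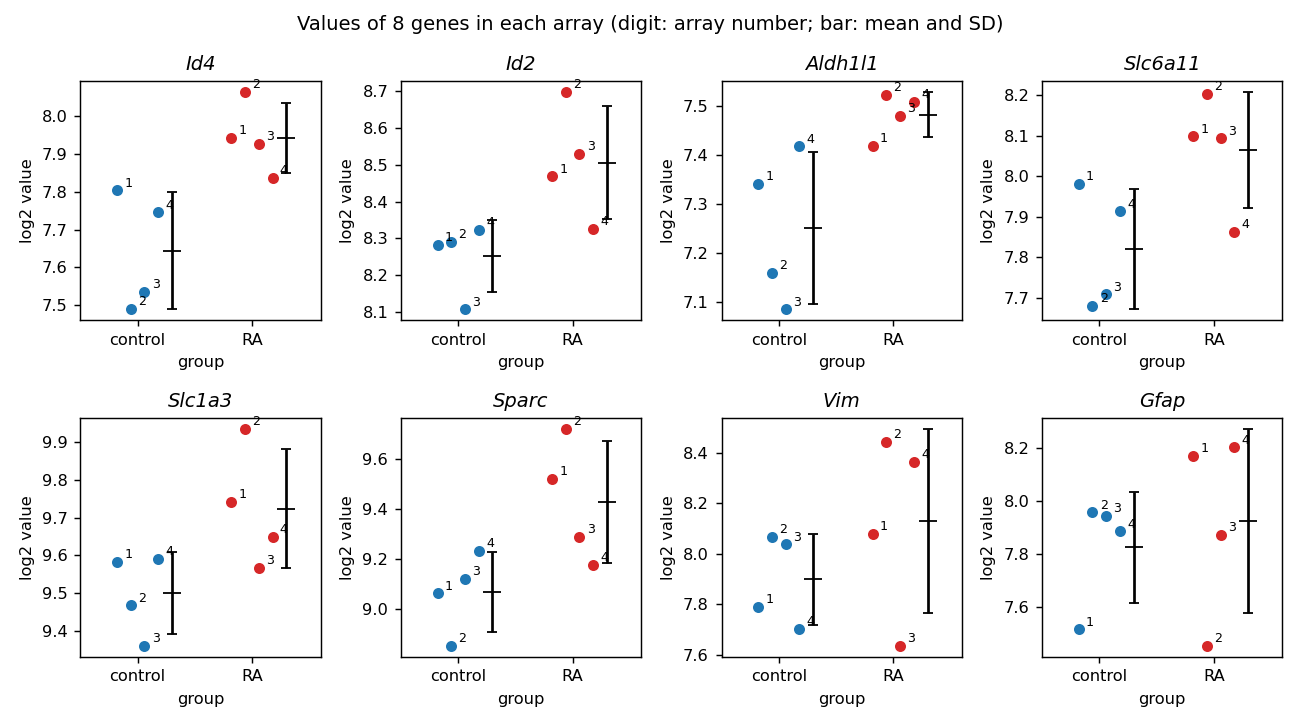
Log2 values (y axes, which differ between panels and do not start at 0) of 8 astrocyte genes in the 4 control (blue) and 4 RA (red) arrays, with the array number beside each point and the group mean ± SD as a bar. Id4 is shown from the dimmest of its probe sets. The groups do not overlap in Id4, Id2 and Aldh1l1, and RA 2 is the highest RA array in each gene but Gfap, where it is the lowest.

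Aldh1l1, a folate enzyme and one of the most used astrocyte markers, had log2 values of 7.34, 7.16, 7.08 and 7.42 in the control arrays and of 7.42, 7.52, 7.48 and 7.51 in the RA arrays. It was called higher, with a log2 fold change of 0.23 ± 0.078 (SE; limma adjusted p = 0.419). RA 1 and control 4 differed by only 0.00026, so the groups did not overlap but nearly met. Aldoc, the aldolase of astrocytes and an abundant transcript with a mean of 11.5, had a log2 fold change of 0.067 ± 0.094 (SE) and was not called.

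Gap junction and membrane genes gave calls that depended on the probe set. Aqp4, the water channel of the end feet, was nearly flat in its brighter probe set, with a log2 fold change of 0.039 ± 0.028 (SE). In its other probe set, the values were 7.76, 7.70, 7.57 and 7.78 in the control arrays and 7.95, 8.04, 7.84 and 7.79 in the RA arrays, and it was called, with a log2 fold change of 0.20 ± 0.070 (SE; limma adjusted p = 0.446). The groups did not overlap there, by a margin of 0.0022 between RA 4 and control 4. Gja1, which encodes the gap junction protein connexin 43, showed the same contrast. Its brighter probe set differed by 0.0093 ± 0.013 (SE) and became -0.0028 without RA 2, while its other probe set was called at 0.23 ± 0.10 (SE; limma adjusted p = 0.504). In that probe set the control arrays held 8.27, 8.16, 8.03 and 8.25 and the RA arrays 8.35, 8.63, 8.45 and 8.21. Both probe sets of Gja1 followed the same arrays (r = 0.781 over 8 arrays), as did those of Aqp4 (r = 0.862), at very different spreads.

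Gjb6 (connexin 30), the bicarbonate transporter Slc4a4 and the tweety family membrane protein Ttyh1 had log2 fold changes of 0.16 ± 0.16, 0.18 ± 0.14 and 0.16 ± 0.10 (SE), and none was called. The amino acid exchangers Slc7a11, which brings in cystine for glutathione, and Slc7a10, which carries serine and glycine, had 0.17 ± 0.14 and 0.14 ± 0.14 (SE) and were not called. Ntsr2, a neurotensin receptor that marks astrocytes in the brain, missed the threshold with a pfp of 0.0566, at a log2 fold change of 0.20 ± 0.073 (SE; limma adjusted p = 0.456).

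Every RA array but RA 4 lay above all control arrays in Ntsr2, with 9.68, 9.78, 9.59 and 9.50 in the RA arrays against 9.50, 9.41, 9.32 and 9.52 in the control arrays. In all, 4 of the 45 astrocyte probe sets (8.89%) had every RA value above every control value, those of Id4, Id2, Aldh1l1 and Aqp4. This held for 2.71% of all measured probe sets, and the reverse order for 2.87% of them and for 0 astrocyte probe sets. With the array medians subtracted, 1 astrocyte probe set had its groups apart, and after quantile normalization 2 did.

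Among the secreted proteins Sparc stood alone. Sparc, a matrix protein that astrocytes secrete and that vessel and meningeal cells make too, had log2 values of 9.06, 8.85, 9.12 and 9.23 in the control arrays and of 9.52, 9.72, 9.29 and 9.18 in the RA arrays. It had the largest log2 fold change of the 29 genes, 0.36 ± 0.14 (SE; limma adjusted p = 0.472), and its other probe set was called as well, at 0.29 ± 0.13 (SE). RA 1, RA 2 and RA 3 were above every control array, and RA 4 was below control 4. The lipid carriers Apoe and Clu were not called, at 0.11 ± 0.13 and 0.11 ± 0.058 (SE). Clu was the only gene whose probe sets differed in direction, with 0.079 ± 0.044 and -0.079 ± 0.055 (SE) in the others, and r between its probe sets went down to -0.022. Sparcl1, a synapse-promoting relative of Sparc, differed by 0.026 ± 0.073 (SE), which became -0.029 without RA 2 and -0.012 without control 3. Bcan, the brain matrix proteoglycan brevican, differed by 0.0074 ± 0.0084 (SE). The metal-binding metallothioneins Mt2 and Mt3 had log2 fold changes of 0.15 ± 0.063 and 0.10 ± 0.067 (SE) and were not called.

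The filament genes, which mark reactive astrocytes, gave 0 calls in 6 probe sets. Gfap had log2 values of 7.51, 7.96, 7.94 and 7.89 in the control arrays and of 8.17, 7.45, 7.87 and 8.20 in the RA arrays. RA 1 and RA 4 were its highest arrays and RA 2 its lowest, and the log2 fold change was 0.10 ± 0.20 (SE; limma adjusted p = 0.886). It became -0.0039 without control 1, and the other Gfap probe sets had log2 fold changes of 0.017 and 0.080. Vim had values of 7.79, 8.07, 8.04 and 7.70 in the control arrays and of 8.08, 8.44, 7.64 and 8.36 in the RA arrays, with a log2 fold change of 0.23 ± 0.20 (SE; limma adjusted p = 0.717). RA 3 was its lowest array and RA 2 its highest, and its pfp of 0.0518 lay just above the threshold. The meningeal markers were highest in RA 2 as well, and the part of other cells in the Vim values was not tested.

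Across the arrays, 22 of the 29 genes were highest in RA 2 and 14 were lowest in control 3. The mean deviation of the 29 genes from their own means was -0.027, -0.13, -0.16 and 0.014 in control 1 to 4 and 0.074, 0.19, 0.026 and 0.022 in RA 1 to 4. The groups did not overlap on this mean, but the gap between control 4 and RA 4 was small beside the spread within the control group. In 18 genes control 1 and control 4 both lay above control 2 and control 3. Only in 19 of the 29 genes were 3 or more RA arrays above the mean of the gene.

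**Figure D3:**
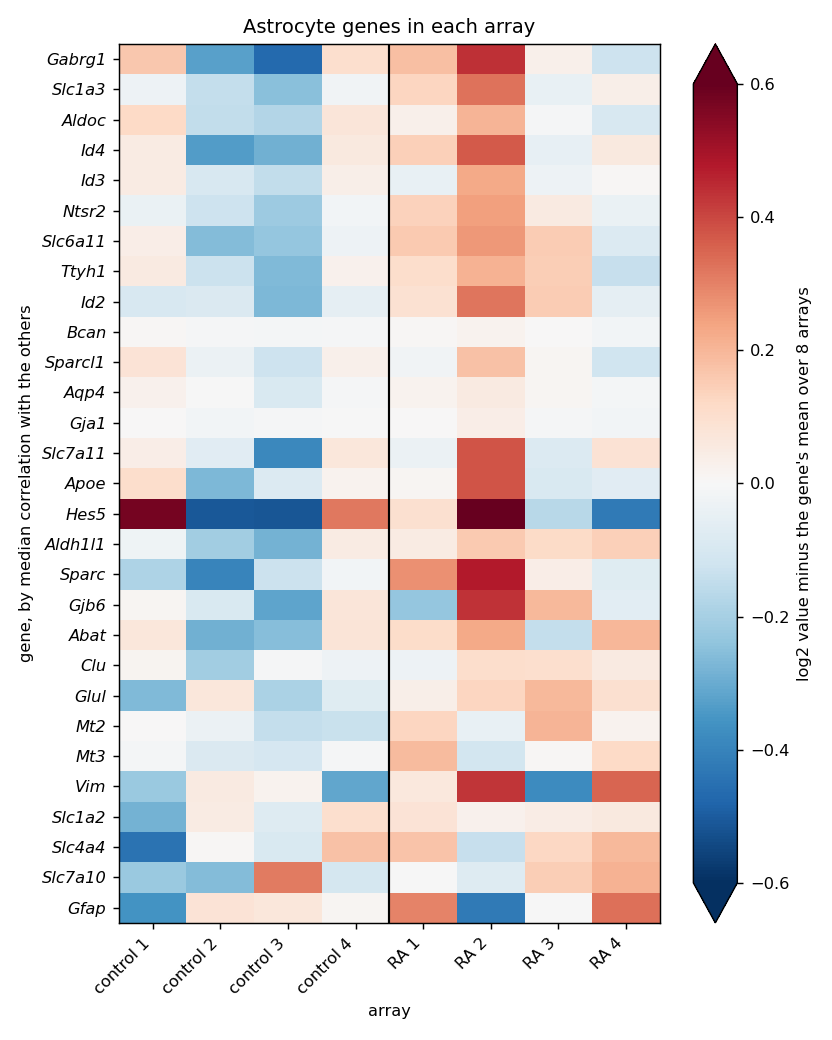
Log2 value minus the mean of the gene over 8 arrays (colour) for the 29 measured astrocyte genes (rows, from the highest to the lowest median correlation with the others) in each array (columns, control left of the line and RA right of it). Values beyond the ends of the colour scale are drawn at its ends. RA 2 is the darkest red column and control 2 and control 3 the bluest, while Gfap in the bottom row is blue in control 1 and RA 2.

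Most astrocyte genes varied together over the 8 arrays. Of the 406 pairs of measured genes, 326 (80.3%) had a positive Pearson correlation, with a median r of 0.512. Over the pairs of all 2496 measured genes, 52.4% were positive, with a median r of 0.052. With the mean of each group taken off, 245 of the 406 pairs of astrocyte genes were positive and the median r was 0.349. The pairs of all measured genes were not computed in this way, so this value has no background beside it. By an exact permutation test over the 40320 pairings (2-sided), 28 pairs had a Benjamini-Hochberg adjusted p under 0.05 over all 406 pairs, and all 28 were positive. This count is for Pearson's r. By Spearman's rho, with the same exact test and adjustment, only Aldoc and Hes5 passed (adjusted p = 0.0201). The next lowest adjusted p was 0.0515, for Id4 and Slc1a3 among others.

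The closest pair was Aldoc and Hes5 (Pearson's r = 0.974, exact p = 2.5e-05, adjusted p = 0.0101). Spearman's rho was 1 (exact p = 5.0e-05, adjusted p = 0.0201), both p being the smallest that these pairings can give. For this pair r was 0.994 with group means taken off and 0.976 without RA 2 and control 3, the arrays farthest from the median. Aldoc and Gabrg1 followed (r = 0.966, exact p = 0.00017, adjusted p = 0.0336; rho = 0.929, exact p = 0.0022, adjusted p = 0.0755; r = 0.931 without RA 2 and control 3). Aldoc and Hes5 thus shared the order of the arrays while neither was called between the groups. Id2 and Ntsr2 had r = 0.951 (exact p = 0.00084, adjusted p = 0.0336), rho = 0.857 (exact p = 0.0107, adjusted p = 0.114) and r = 0.813 without RA 2 and control 3. Ntsr2 and Slc1a3 had r = 0.948 (exact p = 0.00094, adjusted p = 0.0336), rho = 0.786 (exact p = 0.0279, adjusted p = 0.160) and r = 0.806 without the same arrays.

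Gfap ran against the group. Its correlation was negative with 21 of 28 other genes, with a median r of -0.35, while Gabrg1 (0.80), Slc1a3 (0.77), Aldoc (0.76) and Id4 (0.75) had the highest medians. The lowest r was between Gfap and Sparcl1, at -0.840 (exact p = 0.0089, adjusted p = 0.0646), with rho = -0.810 (exact p = 0.0218, adjusted p = 0.147). Without RA 2 and control 1, the arrays farthest from the median of Gfap, this r was -0.471. Gfap with Gja1 (r = -0.754), Bcan (r = -0.749) and Hes5 (r = -0.729) came next, at adjusted p of 0.0795, 0.107 and 0.126 by the exact test. Their rho was -0.738, -0.738 and -0.667 (exact p = 0.0458, 0.0458 and 0.0831, adjusted p = 0.198, 0.198 and 0.272). Without RA 2 and control 1, r became -0.248 with Gja1 and -0.108 with Hes5. With Bcan it became -0.365 without RA 2 and RA 4, the arrays farthest from the median of Bcan. These negative relations of Gfap were thus weaker without 2 arrays, RA 2 being among them each time, and none passed the adjustment.

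Slc1a2, Slc4a4 and Slc7a10 also stood outside the main group, with median r of 0.098, -0.027 and -0.16. Slc1a2 and Slc4a4 had r = 0.920 with each other (exact p = 0.0037, adjusted p = 0.0514) and rho = 0.881 (exact p = 0.0072, adjusted p = 0.101), which did not pass the adjustment, and r = 0.768 without control 1 and control 3. In the same arrays, the 3 probe sets of Gfap correlated with each other at r = 0.665 to 0.876, those of Vim at 0.866 to 0.977 and those of Id4 at 0.853 to 0.957.

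**Figure D4:**
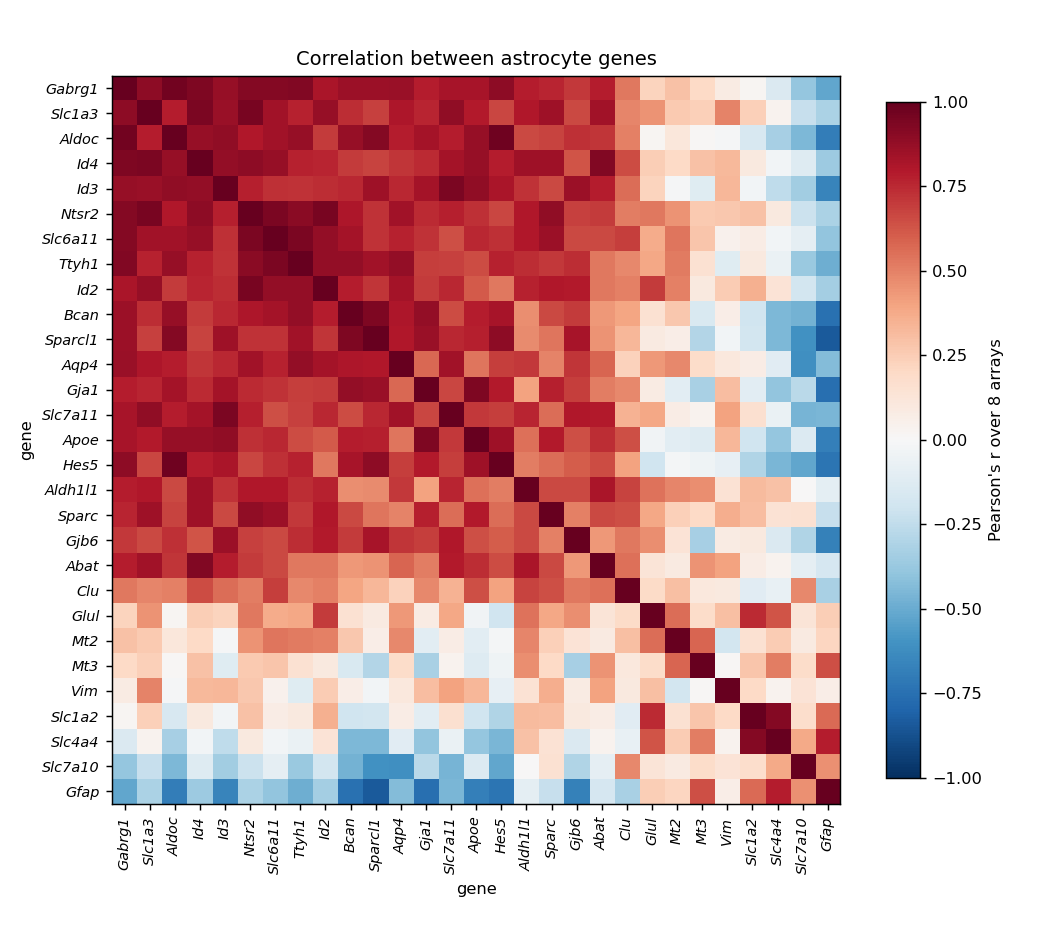
Pearson's r over 8 arrays (colour, from -1 in blue to 1 in red) between each pair of the 29 measured astrocyte genes, ordered on both axes by their median r. The genes from Gabrg1 to Abat form a block of positive correlations, and Gfap in the last row and column is negative with 21 of 28 genes.

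Other astrocyte genes showed the same arrays. Of 40 further genes of astrocytes, 17 were measured. By the probe set that stands for each gene, 6 were called higher and 0 lower, against 10.8% and 6.81% of all measured probe sets. Counting any probe set, 7 genes were called higher. All 17 were higher on average in the RA arrays, as were 73.1% of all measured probe sets (median log2 fold change 0.15, against 0.069). The mean deviation of this list was between -0.19 and 0.0042 in the control arrays and between 0.016 and 0.21 in the RA arrays, and RA 2 was again the highest. Fabp7, a fatty acid binding protein of astrocytes and their precursors, had a log2 fold change of 0.36 ± 0.35 (SE), Notch2, a Notch receptor, of 0.35 ± 0.15 (SE) and Slc25a18, a mitochondrial glutamate carrier, of 0.34 ± 0.17 (SE).

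Of 30 genes of reactive astrocytes, 16 were measured and 2 were called higher, Cp and Lcn2, with 0 lower and a median log2 fold change of 0.19. This share is near the 10.8% called higher among all measured probe sets. Counting any probe set, 3 genes of the list were called higher. Cp, the copper-carrying ferroxidase ceruloplasmin, held 6.13, 6.09, 6.06 and 6.09 in the control arrays and 6.34, 6.76, 6.26 and 6.37 in the RA arrays, a log2 fold change of 0.34 ± 0.11 (SE; limma adjusted p = 0.403) with groups that did not overlap. Lcn2, the secreted iron-siderophore carrier lipocalin 2, had a log2 fold change of 0.31 ± 0.31 (SE), with 6.99 in RA 1 and 5.73 in RA 3 and RA 4. The mean deviation of the reactive list overlapped between the groups, from -0.19 to 0.13 in the control arrays and from -0.097 to 0.15 in the RA arrays.

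Markers of several other cell types differed between the arrays by more than the astrocyte genes did. Calls among these markers are to be read beside the 10.8% higher and 6.81% lower among all measured probe sets. The 16 measured meningeal markers had a mean deviation of 0.78 in RA 2 and between -0.35 and 0.13 in the other arrays, and 10 were called higher (Slc13a4, Fmod and Igf2 the most, at 0.64, 0.61 and 0.60). The 6 measured endothelial and pericyte markers stood at 0.47 in RA 2 and between -0.25 and 0.0051 elsewhere, with 3 called higher (Vtn, Vwf and Flt1 at 0.38, 0.36 and 0.14). RA 2 is also the array where most astrocyte genes were highest. The 14 measured oligodendrocyte markers were lowest in RA 2 and control 1, at -0.66 and -0.58, then in control 4 at -0.32, and lay between 0.14 and 0.44 in the other arrays. RA 2 and control 1 were also the arrays with the lowest Gfap. Of these markers, 2 were called higher, Pdgfra of precursor cells and Olig1 at 0.26 each, and 1 lower, the myelin gene Cldn11 at -0.10. Counting any probe set, 2 oligodendrocyte markers were called higher and 3 lower.

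The choroid plexus markers, with 17 of 18 measured genes called higher (Ttr, Kcnj13 and Clic6 at 1.68, 0.78 and 0.68), had a mean deviation that was highest in control 3 (1.45), followed by RA 4 (1.19), RA 3 (0.74) and RA 1 (-0.16). In control 1, control 2, control 4 and RA 2 it was between -0.82 and -0.79, so these markers and the astrocyte genes had different orders of the arrays. The 13 measured neuron markers lay between -0.044 and 0.070 in all arrays, and 1 was called lower, Snap25, a protein of synaptic vesicle fusion, at -0.21 ± 0.054 (SE; limma adjusted p = 0.341). Of the 9 measured thalamus markers, 6 were called higher, and 8 thalamus markers counting any probe set. Their mean deviation was -0.068, -0.31, -0.34 and 0.098 in control 1 to 4 and 0.34, 0.41, -0.19 and 0.057 in RA 1 to 4. Like the astrocyte genes they were lowest in control 3 and highest in RA 2, and unlike them they were low in RA 3. The part of these other cells and of neighbouring tissue in the astrocyte values was not tested. The deposited values carry no detection calls, so absence of a cell type cannot be read from them.

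**Figure D5:**
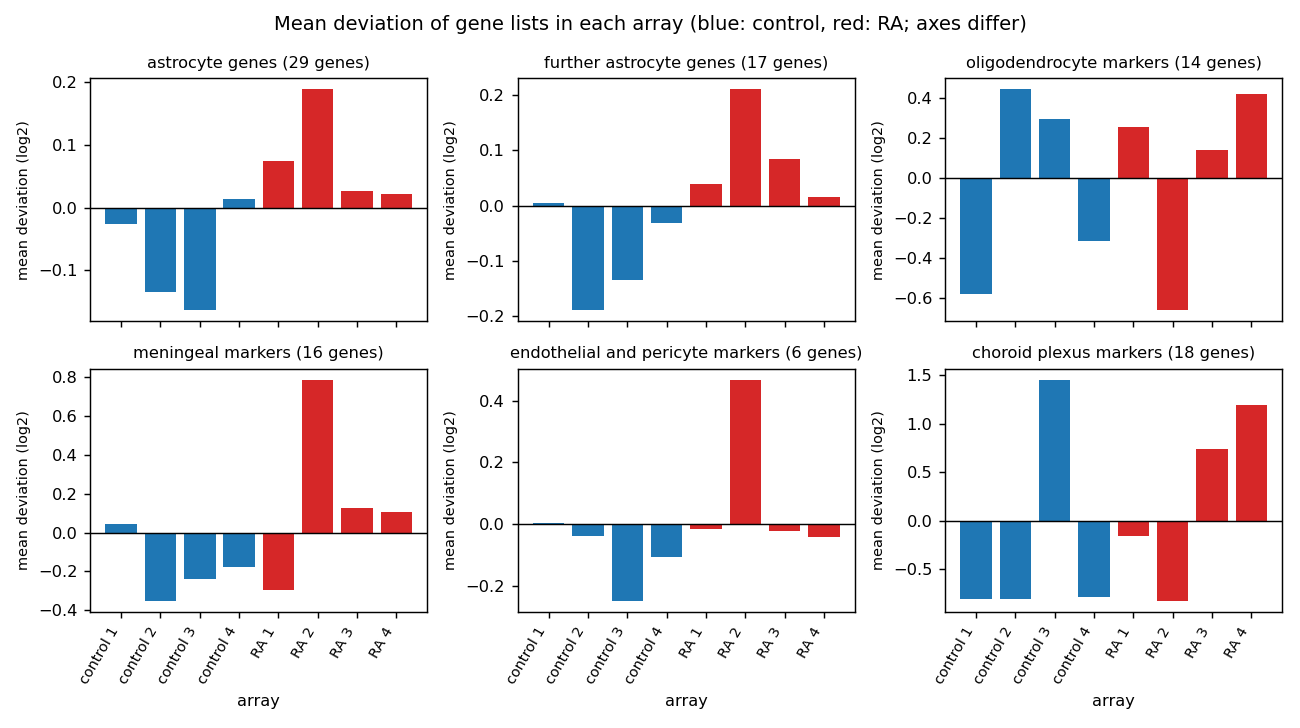
Mean deviation (log2, y axes, which differ between panels) from the mean of each gene over 8 arrays, averaged over the measured genes of 6 lists, in the 4 control (blue) and 4 RA (red) arrays. The astrocyte lists are highest in RA 2, as are the meningeal and the endothelial and pericyte markers, whereas the oligodendrocyte markers are lowest there and the choroid plexus markers are low there and in control 1, 2 and 4.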

How the data were processed

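The arrays were grouped by the sample labels into 4 control and 4 RA arrays. The authors summarised the probes of each scanned array with FARMS in R, and the deposited log2 values of each probe set were used without further scaling. The sources used here do not give how arrays were scaled. FARMS draws probe sets without shared signal to a constant, so small differences count only where the SD was above 0.01, and the number of arrays limits the precision. The 64 probe sets for the manufacturer's controls were left out. Symbols came from the platform annotation, updated through the gene number for 34741 probe sets. The 932 probe sets that name several genes and the 9160 that name none were tested but not named.

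The rank product of the study's Methods was written in Python 3.11.15 with numpy 2.4.6. It ranked the 16 differences between RA and control arrays over all 45037 probe sets, with 100 permutations within arrays, and called probe sets at a pfp under 0.05 in each direction. The pfp depends on how many nearly constant probe sets are ranked with the others. limma 3.58.1 (R 4.3.3) was fitted to the same probe sets for each log2 fold change, its standard error and a p-value with Benjamini-Hochberg adjustment. The scripts were tested on simulated data. Correlations were tested exactly over all pairings with scipy 1.17.1.

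Every measured astrocyte gene is named, shown from its measured probe set with the highest mean, with others where direction or call differ. Of the other lists, up to 3 called genes are named by size of change, and of the correlations the 4 highest and 4 lowest. Calls in the other lists are counted by the probe set that stands for each gene, except where any probe set is named. The members and the gene lists were chosen with earlier results of these data known, and the median r of other pairs was added as description. Alternatives were array scaling, filters, a replicate block, limma, the methods' t-test, other probe sets and leaving out each array.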

Additional observations from a re-analysis of the deposited data

Results flagged for a closer look

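Gfap in control 1 was flagged because it lay far below the other control arrays. Its log2 value was 7.51, against 7.89, 7.94 and 7.96 in control 4, control 3 and control 2. The gap to the nearest of these was 0.839 of the whole range of the control group, above the critical value of Dixon's test for 4 samples at the 5% level. Of 58 groups tested, the control and RA arrays of 29 genes, this was the only one flagged, and chance alone flags about 5% of groups. Oligodendrocyte markers were also low in control 1, with a mean deviation of -0.58, and the part of these cells in the Gfap value was not tested.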

How the results depend on the processing

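Most astrocyte genes had the same direction under each alternative, but not the same calls. The number of genes with a higher mean in the RA group, 29 of 29, went down to 26 at the lowest, without RA 2. The 11 astrocyte genes called higher were 0 under limma, under limma with trend and robust moderation, under the methods' t-test after Benjamini-Hochberg adjustment, among probe sets with a mean above the median, among probe sets with an SD above 0.01, and with a replicate block. Leaving out 1 array gave 0 to 15 genes called higher, with 0 without each RA array, and 0 to 1 called lower, a probe set of Clu without RA 3. The cause was not tested, and the log2 fold changes of the 9 genes called by the probe set that stands for them were 0.15 to 0.44 without 1 RA array. With quantile normalization 10 genes were called and with array medians subtracted 11. An added random draw, chosen after seeing the data, also gave 11.

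Over the whole array the 407 higher and 256 lower calls became 50 higher among probe sets with a mean above the median. Among those with an SD above 0.01 they became 3 higher and 17 lower. All 407 and 256 calls lay in probe sets with an SD above 0.01, so this last filter took out only nearly constant probe sets. Leaving out 1 array gave 24 to 969 higher and 129 to 317 lower calls. limma, with or without trend and robust moderation, and the adjusted t-test gave 0 in both directions, and the unadjusted t-test at 0.05 gave 1976 higher and 2119 lower. The labels do not say whether the replicate numbers pair the arrays. Deviations of same-numbered arrays correlated at -0.12, -0.33, 0.45 and -0.39. Those of arrays with other numbers lay between -0.70 and 0.74, so the correlations cannot settle it. The replicate block gave 59 higher calls over the array.

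The 4 astrocyte probe sets with groups apart became 2 with quantile normalization, 1 with array medians subtracted, and 4 to 10 with 1 array left out. The median r of 0.512 was 0.349 with group means taken off, 0.244 without the 2 arrays farthest from the median of a gene, and 0.407 to 0.565 with 1 array left out, the lowest without RA 2. Log2 fold changes that turned with 1 array left out were Gfap (-0.0039 without control 1 to 0.26), Hes5 (-0.13 without RA 2 to 0.27, also -0.095 and -0.097 without control 2 and control 3), Sparcl1 (-0.029 without RA 2 to 0.069, also -0.012 without control 3) and Gja1 (-0.0028 without RA 2 to 0.017).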

Other observations

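Genes of the pathways that act on Id and Hes genes were mostly unmeasured. Of 32 genes of the BMP and Notch pathways 6 were measured, of which 3 were called higher and 0 lower, against 10.8% and 6.81% of all measured probe sets. Bmp6, a bone morphogenetic protein ligand, had a log2 fold change of 0.35 ± 0.21 (SE), the receptor gene Notch2 of 0.35 ± 0.15 (SE) and Smad4, the shared partner of the BMP-activated Smad proteins, of 0.19 ± 0.075 (SE). Notch2 is also counted among the called further astrocyte genes, from the same probe set. Bmp6 reached 7.25 in RA 2, and the next highest value was 6.81 in RA 4. The mean deviation of the list was between -0.12 and -0.027 in the control arrays and between -0.13 and 0.29 in the RA arrays.

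Of 15 neuronal genes of GABA and glutamate handling 5 were measured, and 1 was called higher, Slc17a6, a vesicular glutamate transporter, at 0.38 ± 0.29 (SE). Counting any probe set, 1 gene of this list was called higher and 1 lower. None of the 8 measured microglia markers was called, by the rank product or by limma, and all 8 were higher on average in the RA arrays (median log2 fold change 0.15). Of 11 measured ependymal markers 2 were called higher, Cfap126 and Ak7 of motile cilia, both at 0.18. Over all measured probe sets 10.8% were called higher, which the counts of these lists are to be read against. The called thalamus markers with the largest log2 fold change were Zic1 at 0.68 ± 0.37, Slc17a6 at 0.38 ± 0.29 and Tcf7l2 at 0.32 ± 0.28 (SE). Slc17a6 is the same probe set in the neuronal and the thalamus lists, so its call is counted in both.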
